A study of Drosophila melanogaster with 3 samples.

Results

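The genes described here are 10 genes of Drosophila neuroblasts, the stem cells of the fly nervous system, chosen by name out of 13945 protein-coding genes. Of these, 6 encode transcription factors (dpn, wor, ase, pros, SoxN and grh) and 4 encode proteins of the asymmetric division machinery at the cell cortex (mira, insc, brat and numb). Chromatin bound by CG12155 was mapped by ChIP-seq in 3 biological replicates of a single group, with no second condition. Each replicate was made from whole embryos, 0 to 24 hours old and of both sexes, of a transgenic line in which CG12155 carries eGFP at its C-terminus, and the fusion protein was precipitated with an antibody against GFP. All replicates share the transgene, and the sources used here do not name a promoter or cell type that drives it. The chromatin comes from whole embryos, so a peak cannot be assigned to neuroblasts or to any other cell type. The labels mention a possible control, and it was not analysed here.

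Neuroblasts divide asymmetrically, renewing themselves and producing a smaller daughter that goes on to make neurons and glia. Proteins at the apical cortex, among them Inscuteable, orient the spindle and drive fate determinants to the basal side, where the adaptor Miranda carries Prospero and Brat into the daughter and Numb, an inhibitor of Notch signalling, is inherited as well. Transcription factors such as Deadpan, Worniu and Asense mark the stem cell and sustain its identity, while Prospero enters the nucleus of the daughter and ends self-renewal.

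Binding was read from the deposited dm6 peak lists: an optimal list of 5202 peaks that passed the authors' reproducibility threshold, a relaxed list of 30000 regions for the pooled replicates, and relaxed lists of 30000, 29643 and 30000 regions for replicates 1, 2 and 3. Relaxed lists include background by design. Every optimal peak is also among the 5202 strongest regions of the pooled list, and a rank below counts from 1 at the strongest signal of a list. A promoter peak is a summit within 500 bp of a transcription start site (TSS), and an intronic peak is a summit in an intron and in no annotated exon. A replicate was taken to support an optimal peak where a region among that replicate's own 5202 strongest overlapped it by 1 bp or more. Since the lists give regions without reads, library depth is unknown.

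None of the 6 transcription factor genes had an optimal promoter peak, while 2 of the 4 division genes did, brat and numb. That made 2 of 10 genes, beside 26.2% of all protein-coding genes, and with peaks supported by all 3 replicates the same 2 genes remained, beside 20.1% of all genes. Intronic optimal peaks were present in pros and grh among the transcription factor genes and in insc, brat and numb among the division genes, 5 of 10 genes in all, beside 9.13% of all genes. The same 5 genes were those with an optimal summit anywhere in the gene or within 5 kb of it, beside 54.3% of all genes. The intronic peak of numb is its promoter peak, counted under both rules. With intronic summits within 500 bp of a TSS left out, 4 genes remained, pros, grh, insc and brat. The share of all genes was not recomputed for that rule. The difference between the classes at promoters, 0 of 6 against 2 of 4, rests on 2 genes in 1 peak set and was not tested. The count of promoters and the count within 5 kb were close to the share of all genes.

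**Figure D1:**
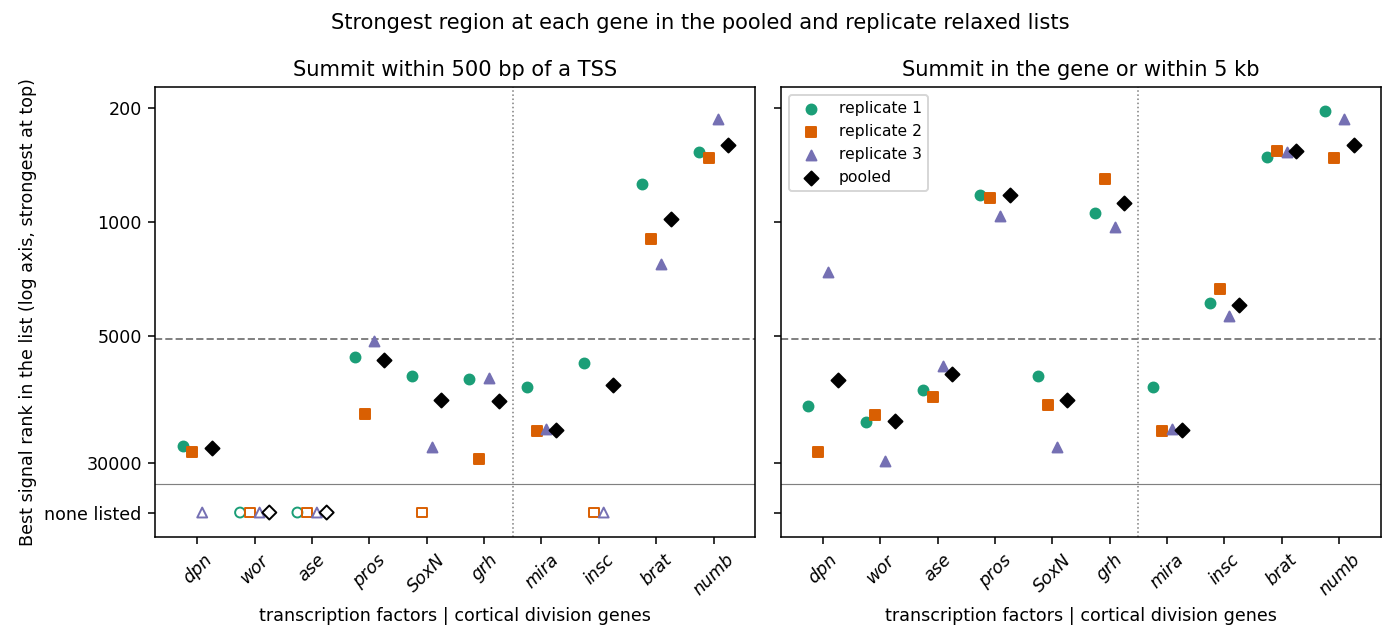
Rank of the strongest region of each gene (vertical axis, logarithmic, strongest at the top) within 500 bp of a TSS and within the gene or 5 kb, for the pooled list and the 3 replicates, with transcription factor genes left of division genes. The dashed line marks rank 5202, the size of the optimal list, and at promoters only brat and numb lie on its strong side in all 4 lists.

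In the relaxed list of the pooled replicates, 8 of the 10 genes had a promoter region, 4 of 6 transcription factor genes and 4 of 4 division genes, beside 54.2% of all genes. The best promoter rank had a median of 11120 over these 8 genes, against 5515 over the 7560 genes of the genome with such a region. Intronic regions were again found in the same 5 genes, beside 23.1% of all genes, and a region in the dpn intron did not count because a noncoding RNA has an exon there. All 10 genes had a relaxed region in the gene or within 5 kb, beside 85.2% of all genes, with a median best rank of 5882 against 3280 over all genes with one. In both of these relaxed comparisons the genes with a region lay on the weak side of the genome. Where they had intronic regions, the order was the other way, with a median best rank of 771 over the 5 genes. The median was 7454 over the 3216 genes with a relaxed intronic region. All 5 genes have an optimal intronic peak, and the median over the 1273 genes with such a peak was 2047. The order was also the other way for optimal promoter peaks, with a median of 651 over brat and numb. Over the 3647 genes with one it was 2132. For optimal summits in the gene or within 5 kb, the medians were 688 over 5 genes and 1637 over 7577 genes. The 688 is the rank of a peak near pros, at the promoters of mgr and Irbp. The 5 genes with intronic regions were all 10 kb or longer, and their ranks were not compared with those of genes of like length. A single numb peak, at a TSS and in an intron, enters the medians of 771, 651 and 688. The strongest brat promoter peak is nearer to the start of Polr1D.

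The transcription factor genes without any optimal peak in the gene or within 5 kb were wor, ase, SoxN and dpn, all under 10 kb long. The gene wor (FBgn0001983, 2L:15423297-15425580, minus strand) encodes a zinc finger factor of the Snail family. It had no promoter region in the pooled list or in any replicate. Its strongest region, 3059 bp upstream of the TSS, ranked 16434 in the pooled list, and in the replicates' own lists the strongest region within 5 kb ranked 16683, 15262 and 28919. All of these ranks are far beyond 5202, and the nearest optimal summit was 73437 bp from the gene, at the promoter of lace. The gene ase (FBgn0000137, X:460747-463176, plus strand) encodes a basic helix-loop-helix factor of the achaete-scute complex. It also had no promoter region in any list. A region 2745 bp upstream, in an intron of CG32816, ranked 8551, and the replicates' strongest regions within 5 kb ranked 10662, 11727 and 7568. The replicates thus all listed a region near ase, none of them among their 5202 strongest.

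SoxN (FBgn0029123, 2L:8825645-8829670, plus strand) encodes a Sox factor with an HMG box that acts in the early neurectoderm. Its promoter region, 57 bp downstream of the TSS in the 5' UTR, ranked 12302 in the pooled list, 8768 in replicate 1 and 23821 in replicate 3, and replicate 2 listed none. A weak promoter region was thus present in 2 of the 3 replicates, at very different ranks. The nearest optimal summit lay 16452 bp away, in intergenic sequence, with rank 1755.

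The gene pros (FBgn0004595, 3R:11328480-11407627, plus strand, 79148 bp long) encodes the homeodomain factor Prospero. Of its 4 TSSs, only that at 11372788 had a region in the pooled list, 34 bp upstream, with rank 7011. The overlapping region ranked 6681 in replicate 1 and 5390 in replicate 3, and replicate 2 listed none there. The best promoter region of replicate 2, at rank 15068, does not overlap it, and no replicate had a pros promoter region among its 5202 strongest. Its 1 optimal peak inside the gene, at 3R:11368724-11369153, lay in an intron 3849 bp upstream of the same TSS. This peak ranked 2580 in the pooled list and 2025, 2663 and 5041 in the replicates, and was supported by all of them. A second optimal peak within 5 kb, at 3R:11409821-11410109, ranked 688, with 686, 710 and 914 in the replicates, but it lies past the 3' end of pros and within 500 bp of the TSSs of mgr and Irbp. The strongest region near pros is therefore at a promoter of other genes. Just beyond the size of the optimal list, a region in the 3' UTR of pros ranked 5529. Relaxed summits were sparse along pros, 0.0758 per kb, against a median of 0.21 over all genes of 10 kb or more.

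The sequence of both summits with 50 bp on either side is given because these are the optimal peaks nearest to pros. It is the plus strand of dm6, read from the RefSeq copy of Release 6. Capitals mark matches to TATAAA, the only one of 10 searched motifs found in them. GC content was 21.8% at the intronic summit, at 3R:11368889-11368989, and 12.9% at the summit beside mgr and Irbp, at 3R:11409908-11410008, against a median of 33.7% and quartiles of 27.7% and 42.6% over the windows of all 5202 optimal summits.
pros intron: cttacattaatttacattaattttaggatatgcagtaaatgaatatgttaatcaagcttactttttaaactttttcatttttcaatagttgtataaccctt
mgr and Irbp: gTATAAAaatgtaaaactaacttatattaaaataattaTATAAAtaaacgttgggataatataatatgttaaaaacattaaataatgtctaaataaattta
Both windows are on the AT-rich side of the optimal set, and TATAAA was present in 20.1% of all optimal windows.

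The division genes are described with numb and brat first, since these carry the promoter peaks. The gene numb (FBgn0002973, 2L:9437469-9464184, plus strand, 26716 bp long) has 2 TSSs. The peak at 2L:9449404-9449777 had its summit 203 bp upstream of the second TSS, at 9449830, within an intron of the longer transcripts, and no other gene has a TSS within 500 bp. It ranked 339 in the pooled list and 375, 406 and 233 in replicates 1, 2 and 3. The first TSS, at 9437469, had only a region of rank 11131, so the strong signal lay at 1 of the 2 starts. A second optimal peak, at 2L:9460065-9460357, lay in a 5' UTR exon 10406 bp downstream of the second TSS and ranked 399, with 211, 867 and 555 in the replicates. Its summit window had a GC content of 56.4%, above 96.7% of optimal windows.

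The gene brat (FBgn0010300, 2L:19133816-19179758, plus strand, 45943 bp long) encodes a protein of the TRIM-NHL family that represses translation and is inherited by the differentiating daughter. It had 8 of the 17 optimal peaks found at the 10 genes. The peak at 2L:19133543-19133675 was 199 bp upstream of the first brat TSS and ranked 964, with 582, 1273 and 1816 in replicates 1, 2 and 3. Its summit is nearer to Polr1D, which is transcribed away from brat and starts 134 bp from it, so the peak cannot be assigned to 1 of these genes. The peak at 2L:19158304-19158733 was 21 bp upstream of the second TSS, at 19158540, and ranked 2090, with 1156, 2933 and 3184 in the replicates. That peak has no start of another protein-coding gene within 500 bp and overlaps an exon of the antisense noncoding RNA lncRNA:CR44977. The remaining TSS, at 19165867, had a promoter region of rank 8263 only. The strongest peak of the gene, at 2L:19165012-19165304, lay 721 bp upstream of that last TSS in an intron and ranked 369, with 401, 368 and 371 in the replicates. Replicates gave that peak almost the same rank.

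The other peaks at brat were weaker. The intronic peak at 2L:19141677-19142106 ranked 1674 and was supported by all 3 replicates. The intronic peaks at 2L:19140861-19141290 and 2L:19159167-19159596 ranked 3930 and 4338 and were supported by 2 replicates each. Upstream of the gene, 2 overlapping peaks with ranks 1070 and 3337 lay between AsnRS and DCTN6-p27, within 500 bp of the TSSs of both. Relaxed summits were dense inside brat, 0.631 per kb, the highest value of the 10 genes, against 0.374 per kb in numb and a median of 0.21 over genes of 10 kb or more.

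The sequences with 50 bp on either side of the summit of the numb promoter peak (2L:9449577-9449677), the peak between brat and Polr1D (2L:19133567-19133667) and the strongest intronic peak of brat (2L:19165096-19165196) are shown because these carry the strongest signal at division genes outside exons. Capitals mark matches, on either strand, to a searched motif.
numb promoter: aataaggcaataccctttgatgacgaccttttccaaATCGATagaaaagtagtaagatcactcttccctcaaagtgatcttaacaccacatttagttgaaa
brat and Polr1D: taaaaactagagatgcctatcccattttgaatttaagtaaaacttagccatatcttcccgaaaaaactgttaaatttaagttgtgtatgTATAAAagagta
brat intron: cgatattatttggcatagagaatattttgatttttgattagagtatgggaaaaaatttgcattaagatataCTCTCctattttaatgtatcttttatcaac
At numb the match is ATCGAT, the core of the DNA replication-related element (DRE), found in 7.55% of all optimal windows. At brat the matches are TATAAA beside Polr1D and GAGAG, the repeat bound by GAGA factor, in the intron, and GAGAG was found in 11.1% of all optimal windows. GC content was 35.6%, 27.7% and 24.8% in the same order as the sequences.

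The other searched motifs were the full DRE TATCGATA, the core of motif 1 GGTCACACT, the E-box CAGCTG of proneural factors and Asense, the E-box CACGTG of Deadpan and E(spl) factors, CAGGTA of Zelda and the Snail family, AACCGGTT of Grainy head and ACAATG of Sox factors, each on both strands. In the order given they were present in 2.69%, 1.08%, 4.29%, 0.846%, 1.94%, 0.115% and 5.4% of all optimal windows. The DRE core lies within the full DRE, so those 2 matches are not separate. Over the 300 bp from 250 bp upstream to 50 bp downstream of the TSS, the full DRE was present at the first brat start, beside 7.98% of all promoters. The DRE core was also present at the second numb start, beside 20.8% of all promoters, and at 1 of 5 grh starts, which had no optimal peak. Other motifs were found at starts with and without an optimal peak. GAGAG (33.1% of all promoters) was present at starts of every gene but ase and mira, and was the only match at the second brat start. CAGCTG (17.9%) was present at starts of wor, grh, mira and numb, and CAGGTA (6.38%) at starts of dpn, grh and insc. ACAATG (15.5%) was present at starts of pros and insc, and TATAAA (42.2%) at starts of wor, pros, grh, insc, brat and numb. None of the 10 motifs was found at the ase start, at the first pros start, at 1 of 5 grh starts and at 1 of 2 mira starts.

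The gene mira (FBgn0021776, 3R:19931799-19935120, minus strand, 3322 bp long) encodes Miranda, the adaptor for Prospero and Brat. It had no optimal peak in the gene or within 5 kb. Its promoter region, 413 bp upstream of a TSS and inside an intron of Hs6st, ranked 18711 in the pooled list, and the overlapping region ranked 10278 in replicate 1 and 18452 in replicate 3. Replicate 2 had a different region at a mira promoter, with rank 19156. No replicate had a mira promoter region among its 5202 strongest. The nearest optimal summit was 22754 bp away, in an intron of RhoGAP92B and in an exon of a noncoding RNA, with rank 940.

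The gene insc (FBgn0011674, 2R:20821262-20836028, minus strand, 14767 bp long) encodes Inscuteable, which links the apical polarity complex to the spindle machinery. It shares its TSS with sktl, so promoter regions of these genes cannot be told apart. The promoter region ranked 9939 in the pooled list and 7344 in replicate 1, and replicates 2 and 3 listed none. Inside the gene, the peak at 2R:20830787-20831216, intronic to both insc and sktl, ranked 3213, with 3139, 2566 and 4632 in the replicates. The peak at 2R:20832319-20832748 ranked 3426, with 3338, 3262 and 3761, and lies 116 bp upstream of another TSS of sktl. A peak at 2R:20837867-20838296, 2054 bp upstream, ranked 4672, with 5086, 4665 and 5478 in the replicates, and was supported by 2 of them. It is the weakest of the 17 optimal peaks. All 3 peaks are in the weaker part of the optimal list.

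Among the transcription factor genes, grh (FBgn0259211, 2R:17801132-17842820, plus strand, 41689 bp long) encodes Grainy head, a factor of epithelia and of neuroblasts late in their lineages. Promoter regions were listed at 4 of its 5 TSSs. The best of them ranked 12489 in the pooled list, and the regions overlapping it ranked 14134, 10861 and 16959 in replicates 1, 2 and 3. Over all grh starts, the best rank of each replicate was 9109, 28207 and 8985, from different regions. The intronic peak at 2R:17804820-17805070, 2070 bp downstream of the nearest grh TSS, ranked 771, with 883, 545 and 1078 in the replicates. All replicates thus placed an intronic peak of grh among their strongest regions and its promoters far below. A second optimal peak, at 2R:17796518-17796947, 4399 bp upstream, ranked 3463. Its summit is inside an intron of Dhit and in an exon of a noncoding RNA.

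The gene dpn (FBgn0010109, 2R:8228971-8232330, minus strand) encodes Deadpan, a repressor of the Hes family that keeps neuroblasts self-renewing. Its promoter region ranked 24198 in the pooled list, 23485 and 25429 in replicates 1 and 2, and replicate 3 listed none. The strongest pooled region within 5 kb ranked 9218 and lay in the dpn intron. In replicate 3 alone a region within 5 kb ranked 2028, against 13404 and 25429 in replicates 1 and 2. That region overlaps the optimal peak nearest to dpn, at the promoter of pnut, which has a pooled rank of 2695 and its summit 5109 bp from the dpn TSS. Regions of replicates 1 and 2 that overlap this peak ranked 3783 and 2803, with summits just outside the 5 kb window. The higher rank of replicate 3 within 5 kb thus belongs to a peak at the edge of the window, at the promoter of another gene.

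**Figure D2:**
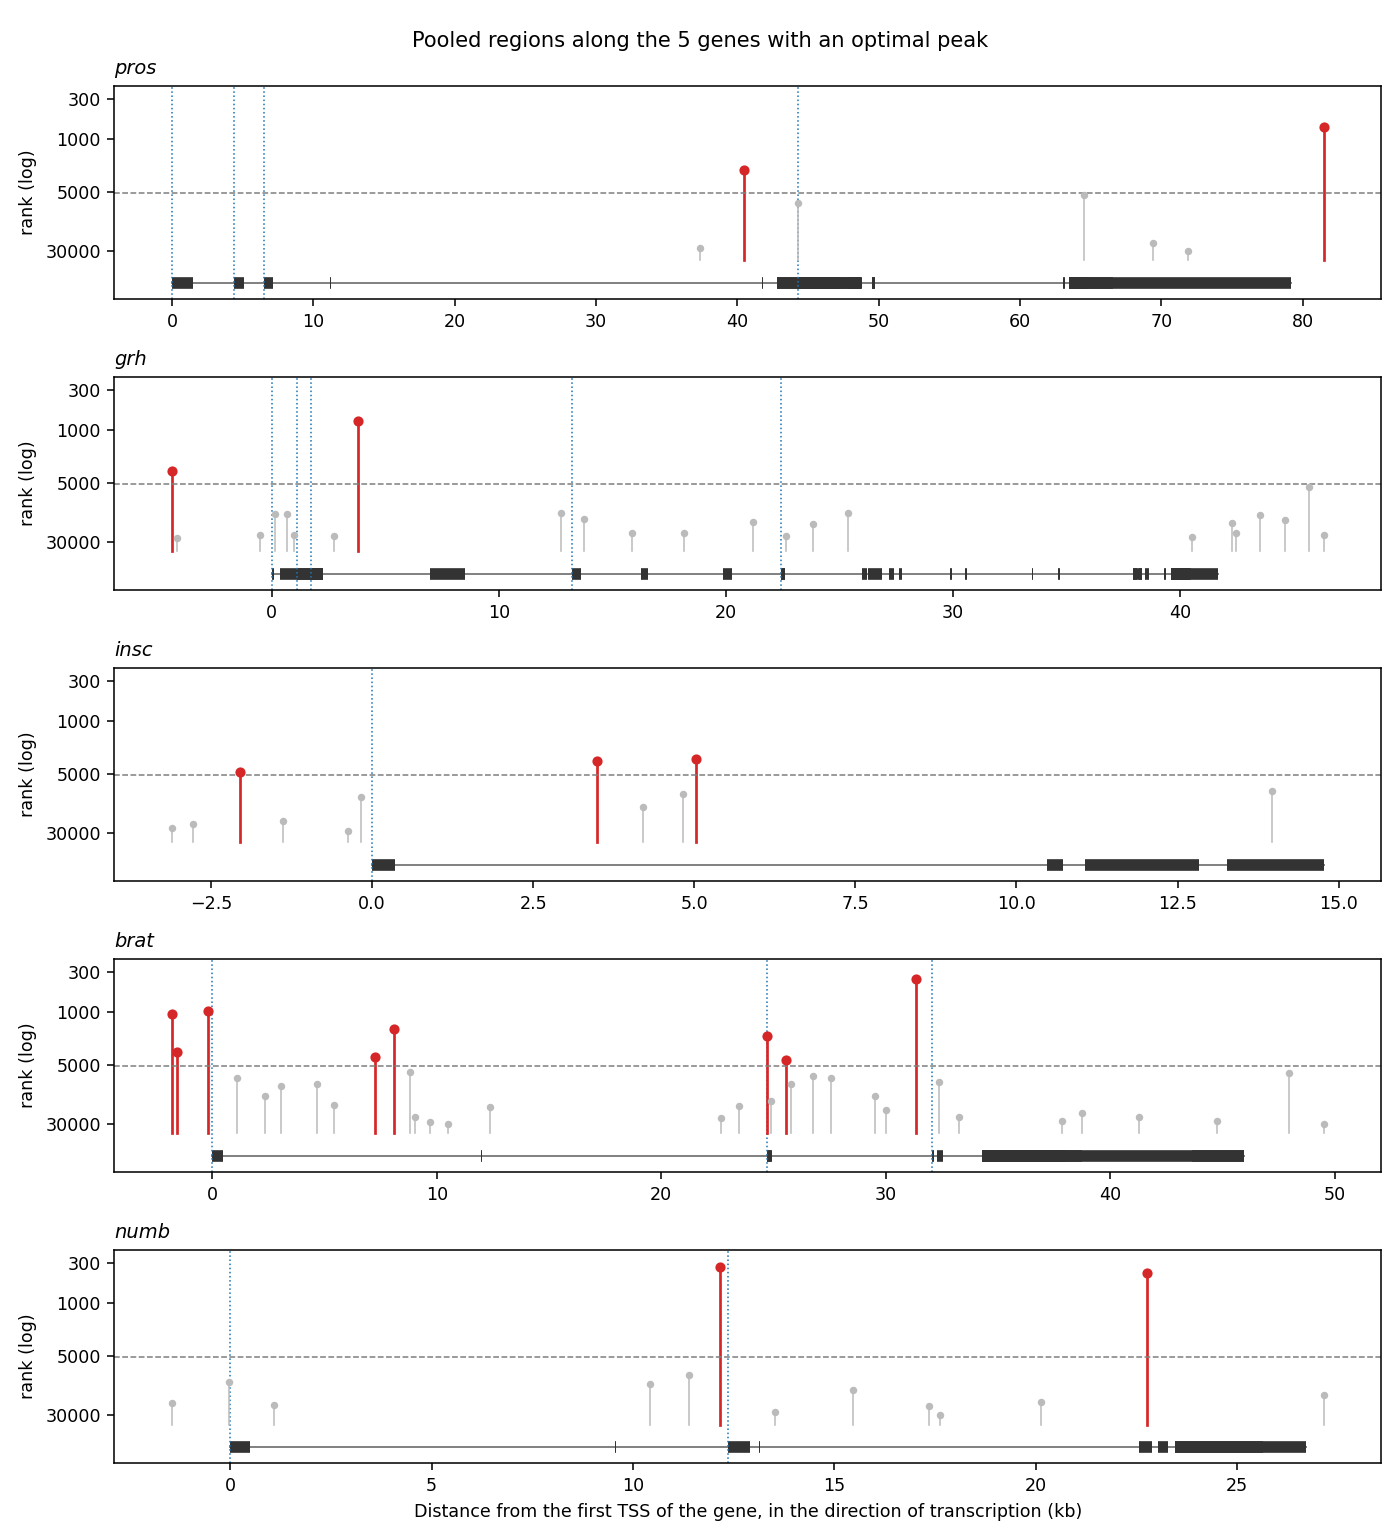
Pooled regions along the 5 genes with an optimal peak, by distance from the first TSS in the direction of transcription (kb) and by rank (logarithmic, strongest at the top), with optimal peaks in red, other regions in grey, TSSs as dotted lines, exons as boxes and a dashed line at rank 5202. The strongest summit of numb lies at its second start and that of brat upstream of its last start, and the promoters of pros and grh carry grey regions only.

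Over all 17 optimal peaks, ranks in the pooled list ran from 339 to 4672 with a median of 2090. Of these peaks, 14 were supported by all 3 replicates (82.4%), against 3808 of all 5202 optimal peaks (73.2%), and the other 3 were supported by 2 replicates. Over the 51 matches between an optimal peak and a replicate region, summits were a median of 14 bp apart and at most 121 bp, and 44 were within 50 bp. Inside genes, 2 peaks lay in transcription factor genes and 9 in division genes. Of the 9, 5 were in brat, 2 in numb and 2 in insc, and those in insc are intronic to sktl as well. The genes differ in length, with dpn, wor, ase, SoxN and mira all under 10 kb. The longest of the genes is a transcription factor gene, pros, with 79148 bp. Of the 17, 5 had a start of another gene within 500 bp, at brat, pros and insc.

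**Figure D3:**
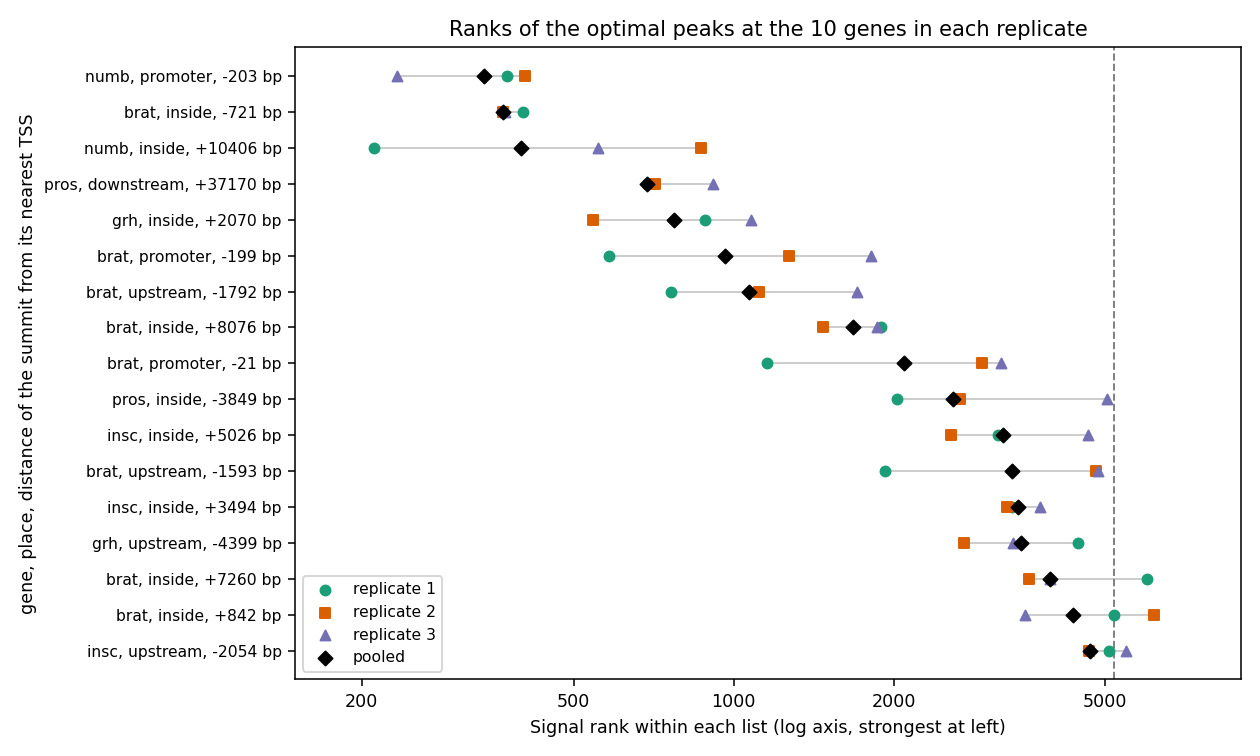
Rank of each of the 17 optimal peaks in the pooled list and in replicates 1, 2 and 3 (logarithmic axis, strongest at left), ordered by pooled rank, with the dashed line at rank 5202. The numb promoter peak and the strongest intronic peak of brat stay between rank 233 and 406 in every list.

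At promoters and in introns, counts were the same in the replicates taken singly. With the 5202 strongest regions of each replicate, 2 promoters were bound, again brat and numb, beside 26.5%, 25.1% and 25.4% of all genes in replicates 1, 2 and 3. Introns of the same 5 genes were bound, beside 8.76%, 9.47% and 9.06% of all genes. Within the gene or 5 kb, 5, 5 and 6 genes were bound, the added gene in replicate 3 being dpn through the pnut region, beside 53.8%, 53.3% and 54.2% of all genes. The replicates share the same transgenic line.

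Gene length moved with these counts. The 5 genes with an optimal peak were all 10 kb or longer, and the 5 without one were all shorter, a division chosen after the values had been seen. Among the 1977 genes of 10 kb or more, 39.3% had an intronic optimal peak, 33.8% a promoter peak and 67.6% a peak in the gene or within 5 kb, beside 5, 2 and 5 of the 5 long genes. Among the 11968 shorter genes the shares were 4.15%, 24.9% and 52.1%, beside 0 of the 5 short genes each time. Both long transcription factor genes, pros and grh, had intronic peaks and no promoter peak. Of the 3 long division genes, brat had both kinds in separate peaks and insc had intronic peaks. In numb, 1 peak was both the promoter peak and the intronic peak. The part of length in the counts was not tested.

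Other genes of neuroblast biology were read in the same way, from 5 lists with 51 genes. Among 12 genes of apical polarity and the spindle, 8 had an optimal promoter peak (66.7%). Among 10 genes of basal and cortical targeting, 5 had a promoter peak. None of 11 proneural and neurectoderm genes and none of 6 genes of the temporal series had one, and of 12 self-renewal and other neuroblast factors 2 did. The polarity, spindle and targeting lists together gave 13 of 22 genes (59.1%), and the proneural, temporal and self-renewal lists gave 2 of 29 (6.9%), beside the 26.2% of all protein-coding genes. In the gene or within 5 kb, 11 of 12 polarity and spindle genes and 5 of 10 targeting genes had a peak. The counts were 1 of 11, 0 of 6 and 7 of 12 in the proneural, temporal and self-renewal lists. Together these made 16 of 22 (72.7%) and 8 of 29 (27.6%), beside 54.3% of all genes. Some of the genes counted here without a promoter peak had peaks only within 500 bp of the start of another gene. They were pins and Khc-73 in the polarity list and erm, E(spl)mgamma-HLH and E(spl)m8-HLH in the self-renewal list. The targeting list (50%) and the self-renewal list (58.3%) were both close to the share of all genes. Genes of 10 kb or more made up 12 of the 22 and 11 of the 29. At promoters, the share of the 22 genes with roles at the cortex and spindle was thus above that of all genes. The promoter share of the 29 genes of the other lists was below it. These are counts with no test, from lists chosen and joined with earlier results of these data known. In the pooled relaxed list, which includes background, 21 of the 22 genes and 18 of the 29 had a promoter region, both shares above the 54.2% of all genes, so the low share of the 29 holds for optimal peaks and not for relaxed regions.

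**Figure D4:**
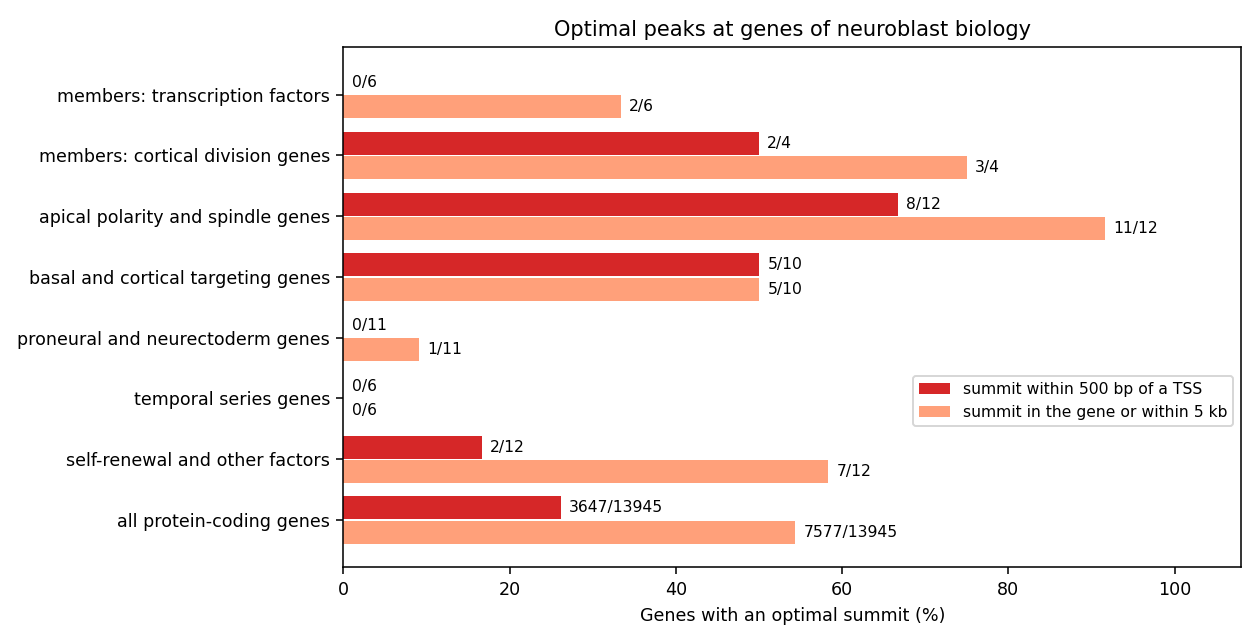
Percentage of genes with an optimal summit within 500 bp of a TSS, and in the gene or within 5 kb (horizontal axis), for both classes of the 10 genes (members) and the other lists of neuroblast genes, with all protein-coding genes last. At promoters, the polarity and spindle list stands at 66.7% and the temporal and proneural lists at 0, against 26.2% of all genes.

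At the polarity and spindle genes, the strongest promoter peak was that of Cdc42, a small GTPase of the apical complex, with rank 193 and with 131, 267 and 215 in replicates 1, 2 and 3. The promoter peaks of par-6 and aPKC, which encode partners of Bazooka in that complex, ranked 895 and 1332, the first shared with CG8188 and the second with ckn. Those of dlg1, ctp and cno ranked 1388, 3137 and 3171. At the targeting genes, the mitotic kinase genes aurA and polo had promoter peaks of rank 1286 and 3181, that of aurA shared with CG3281. The peaks of stau and Rok ranked 2663 and 3778, the first shared with Spn55B and the second with RpS19a. That of scrib ranked 5033 and was supported by 1 replicate. Of the 13 bound promoters of these 2 lists, 6 had the strongest peak within 500 bp of the start of another gene and 9 were supported by all 3 replicates. In the self-renewal list, promoter peaks were found at Imp, an RNA-binding protein of young neuroblasts, with rank 3469, and at the Notch receptor gene N, with rank 3512.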

How the data were processed

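Chromatin of 3 biological replicates of embryos 0 to 24 hours old, from flies with CG12155-eGFP, was sheared to 200 to 800 bp and precipitated with anti-GFP, per the labels. The authors deposited peak lists in which each region has a signal, set by their peak caller, a −log10 q-value and a summit offset. No scale is stated for this signal, and it served only for ranks within 1 list. The −log10 q-value was deposited by the authors and was not used to rank. The name of the aligner, that of the peak caller and the reproducibility threshold were not given in the sources used here. The 5 dm6 lists were used, and the dm3 lists were not used here. No columns of per-sample values were left out (0).

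Genes and 19252 TSS positions were taken from Ensembl release 115, and bases from RefSeq's copy of Release 6. Summits were assigned with Python 3.11.15, numpy 2.4.6, pandas 2.3.3 and intervaltree 3.1.0, tested on simulated data with planted summits, and drawn with matplotlib 3.10.9. A replicate region was matched by an overlap of 1 bp or more and, among several, by the nearest summit. With 1 group, no test between groups was possible.

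The genes and lists were chosen with earlier results of these data known. Named genes were the 10 genes with every optimal peak in the gene or within 5 kb, their strongest promoter region otherwise, the other neuroblast genes with an optimal promoter summit (at most the 6 strongest per list), and neighbours with a TSS within 500 bp of a summit. Genes named outside this rule were chosen after their values were seen: lace, RhoGAP92B, CG32816, Hs6st, Dhit, pnut, pins, Khc-73, erm, E(spl)mgamma-HLH and those in the last section. Alternatives were other promoter windows, TSS sets, definitions of intron and distance, peak sets, overlaps and each replicate left out or alone.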

Additional observations from a re-analysis of the deposited data

How the results depend on the processing

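Of 57 recomputed values, 52 stayed within 1.5 times the reported one, 5 moved further and 0 reversed. The differences between the classes come from the same promoter calls as the promoter counts, so they are not separate checks. Such differences make up 2 of the 5 values that moved. With a promoter window of 200 bp the number of bound promoters was 1 (brat), since the numb summit lies 203 bp from its TSS, and transcription factor genes minus division genes gave −25 percentage points, against −50 as reported. With the pooled relaxed list in place of the optimal list, 8 genes had a promoter region and 10 a region in the gene or within 5 kb, and the difference was −33.3 points. Leaving out each replicate in turn gave 2 to 2 promoters, 5 to 5 genes with intronic peaks, 5 to 5 genes within 5 kb, a difference of −50 to −50 points and 15 to 15 supported peaks. Leaving out a replicate did not remake the optimal list, which draws on all 3. Leaving out summits that also lie at the promoter of another gene, an alternative chosen after seeing the data, kept 2 promoters. With 50% of the peak covered, 12 peaks were supported by all 3 replicates. No paired analysis was possible because the study has 1 group. Depth is unknown, so an absent peak may be one not detected.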

Other observations

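The summit window of the numb promoter peak holds an inverted repeat with arms of 9 bp, TAAGATCAC and GTGATCTTA, separated by 12 bp. An inverted repeat with arms of at least that length and a spacer of up to 20 bp was found in 144 of 5202 optimal windows (2.77%) and in 1 of the 17 windows at the neuroblast genes.

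Outside the listed genes' own promoters, the genes of the self-renewal list with the strongest peaks were chosen after their values were seen. The gene zfh1, a zinc finger factor, had an intronic peak of rank 423, with 528, 483 and 281 in replicates 1, 2 and 3. The Notch receptor gene N had an intronic peak of rank 888, with 1115, 830 and 881. Near E(spl)m8-HLH, a Notch target, a peak of rank 37 lay within 500 bp of a TSS of gro, with 34, 46 and 63 in the replicates. Its summit is 1486 bp from the E(spl)m8-HLH TSS, so it is a promoter peak of another gene.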
